A study of Mus musculus with 2 samples.

Results

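The voltage-gated sodium channel genes Scn1a, Scn2a, Scn3a, Scn4a, Scn7a, Scn9a and Scn4b were followed in mouse hindlimb skeletal muscle. Every probe set whose platform annotation names a gene of this list was taken, which gave 23 of the 35556 probe sets of the table. Of these, 20 name 1 gene and 3 name several sodium channel genes. The 20 stand for 6 of the 7 genes, and Scn4a, which has no named probe set here, was not analysed. The family was taken up because Scn2a had a large difference between these same arrays, so its members were chosen by that measured difference, and the difference of Scn2a is given as a description and supports nothing else.

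RNA was profiled on 1 whole-transcript microarray of muscle from male C57BL/6J mice with a Syn4 transgene (syntaxin 4 overexpression) and on 1 array of muscle from wild-type males of that strain. All mice ate standard chow. The labels give neither the promoter of the transgene nor the ages of the mice, and they do not say whether RNA of several mice was pooled. With 1 array per genotype there is no spread between mice, so no difference was tested and no value below carries an error. Values are log2 intensities made by RMA, which usually corrects background, normalises arrays and summarises each probe set, and each difference is the transgenic value minus the wild-type value. Stx4a, the gene of syntaxin 4, was at 12.20 in transgenic muscle and 8.84 in wild-type muscle. Fibre genes marked the tissue as skeletal muscle: the 14 genes of that list averaged 13.83 in transgenic muscle and 13.83 in wild-type muscle, with a median difference of 0.02.

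Voltage-gated sodium channels open on depolarisation and carry the inward current that starts the action potential. A large alpha subunit forms the pore, and small beta subunits such as Scn4b set its gating and its place in the membrane. Adult skeletal muscle fibres use the alpha subunit encoded by Scn4a, whereas Scn1a, Scn2a and Scn3a are known mainly from central neurons, with Scn3a most abundant before birth, and Scn9a from peripheral sensory and sympathetic neurons. Scn7a encodes an atypical member that senses the extracellular sodium level and is known from glia, including Schwann cells.

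Scn1a, Scn2a, Scn3a, Scn7a and Scn9a form a cluster on chromosome 2, Scn4b lies on chromosome 9 and Scn4a on chromosome 11. The regions around the annotated starts of the 2 genes of the family that were higher by at least 1.5-fold, Scn2a and Scn7a, are given here from the RefSeq table of GRCm38.p6. Each window holds 250 bases before and 50 after a start, 5′ to 3′ on the gene's own strand. Scn2a has 2 windows, at chr2:65620519-65620818 and chr2:65668436-65668735 on the plus strand, which lie 47917 bases apart. Scn7a has 1, at chr2:66784861-66785160 on the minus strand. Capitals mark matches on either strand to the E-box CANNTG, which factors such as MyoD read in muscle genes, or to the TATA box letters TATAAA.
Scn2a, upstream start: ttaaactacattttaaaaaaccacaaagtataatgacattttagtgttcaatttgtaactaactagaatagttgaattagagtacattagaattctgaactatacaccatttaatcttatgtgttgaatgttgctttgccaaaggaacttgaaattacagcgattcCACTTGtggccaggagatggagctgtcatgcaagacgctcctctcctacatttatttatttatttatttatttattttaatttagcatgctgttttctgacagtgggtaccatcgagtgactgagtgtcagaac
Scn2a, downstream start: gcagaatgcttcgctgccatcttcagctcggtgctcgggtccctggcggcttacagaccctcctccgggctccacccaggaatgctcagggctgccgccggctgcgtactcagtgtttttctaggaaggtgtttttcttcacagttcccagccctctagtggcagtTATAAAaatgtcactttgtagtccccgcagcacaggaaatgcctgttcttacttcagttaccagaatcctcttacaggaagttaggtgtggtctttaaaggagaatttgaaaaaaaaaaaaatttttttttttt
Scn7a: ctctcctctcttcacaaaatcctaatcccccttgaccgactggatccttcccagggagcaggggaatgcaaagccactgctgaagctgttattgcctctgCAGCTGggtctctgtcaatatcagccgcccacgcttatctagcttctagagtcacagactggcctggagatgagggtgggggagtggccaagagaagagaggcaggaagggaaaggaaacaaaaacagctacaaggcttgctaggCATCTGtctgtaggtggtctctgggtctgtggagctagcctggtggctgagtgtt
The upstream Scn2a window held 1 E-box and no TATAAA, the downstream window held 1 TATAAA and no E-box, and the Scn7a window held 2 E-boxes. Of all 32851 promoter windows of this length in the table, 72.3% held an E-box and 13.6% held TATAAA. Neither CAGCACC nor GGACAG, letters from the left and right parts of the RE1 element that the repressor REST reads in neuronal genes, was found on either strand of these 3 windows. CAGCACC occurred in 7.14% and GGACAG in 22.2% of all windows, and their lack in these windows says nothing about REST. The GC content was 33.0% in the upstream Scn2a window, 47.7% in the downstream one and 54.0% in that of Scn7a.

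Scn2a was higher in transgenic muscle on each of its 14 own probe sets. On the brightest, probe set 10472400, the level was 10.60 in transgenic muscle and 7.72 in wild-type muscle, a difference of 2.88 or 7.36-fold. By this value Scn2a ranked 5 from the top among the differences of the 19938 genes. Among itself and the 500 genes closest to it in mean level it ranked 1 in size, and the local spread of those differences (a robust SD) was 0.19. Over the 14 probe sets the transgenic levels ran from 6.09 through a median of 8.10 to 10.60, and the wild-type levels from 4.30 through 5.73 to 7.72. The ranges of levels overlap because probe sets differ in brightness, but no probe set was higher in wild-type muscle.

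**Figure D1:**
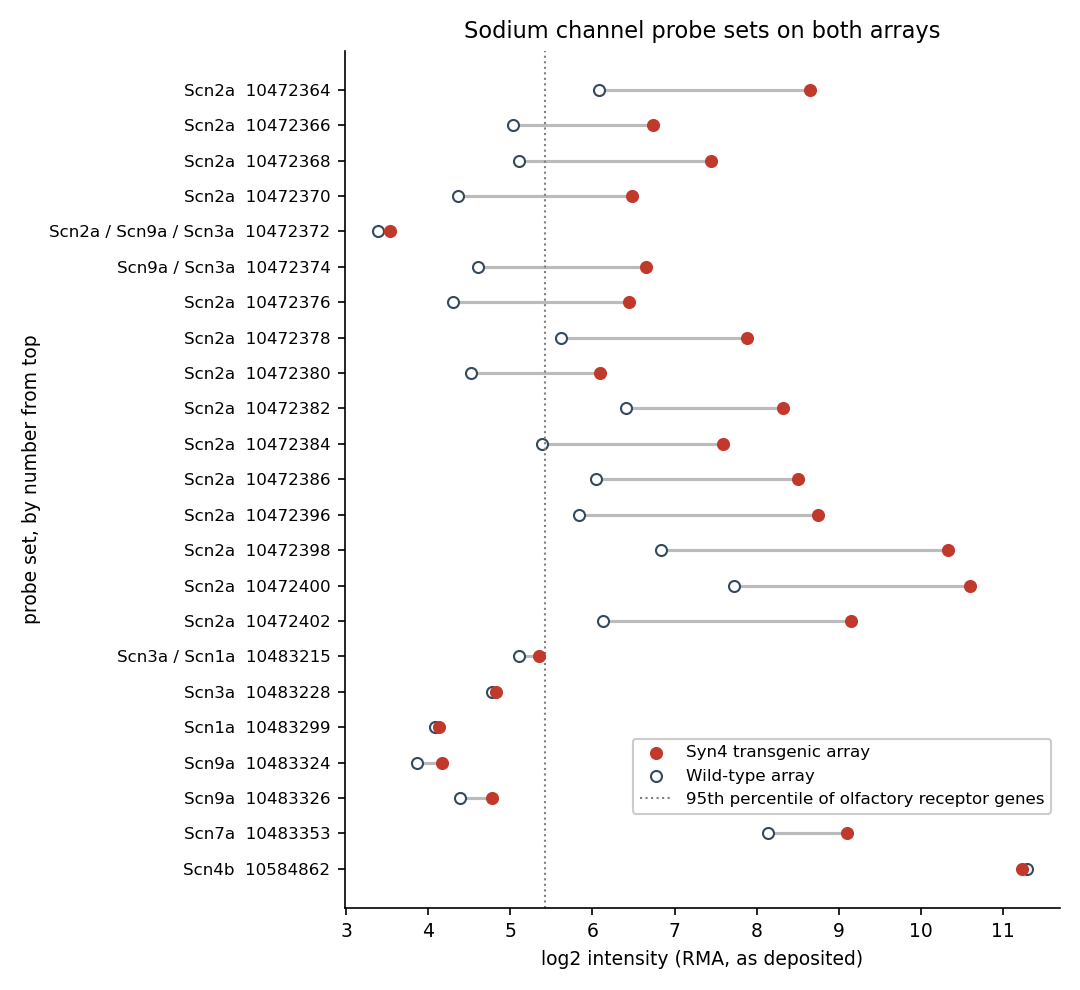
Levels of the 23 sodium channel probe sets as log2 intensity, with filled points for the Syn4 transgenic array, open points for the wild-type array and a dotted line at 5.42, the 95th percentile of olfactory receptor genes. All 14 Scn2a probe sets and the one annotated to Scn9a and Scn3a together (10472374) are shifted to the right in transgenic muscle, whereas those of Scn1a, Scn3a and Scn4b nearly coincide.

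The size of the Scn2a difference varied between its probe sets. Differences ran from 1.57 (2.97-fold) on probe set 10472380 to 3.50 (11.3-fold) on probe set 10472398, with a median of 2.31 (4.94-fold) and an SD over the 14 probe sets of 0.54. All 14 passed 1.5-fold and 2-fold, and 11 passed 4-fold, against 1.88% of the 21789 probe sets with 1 gene symbol that were higher by 1.5-fold, 1.16% that were lower by that size and 0.514% that were higher by 2-fold. Since Scn2a was chosen for this contrast, nothing is read from those shares. The probe sets read the same gene on the same 2 arrays, so they are not replicates of the genotype.

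For orientation on dim values, the 95th percentile of 1027 olfactory receptor genes, which muscle is not known to use widely, was 5.42. In the transgenic array all 14 Scn2a probe sets lay above it, and in wild-type muscle 8 did. The 6 probe sets whose wild-type level was not above it differed by 1.57 to 2.35, and the other 8 by 1.91 to 3.50. The folds of those 6 rest on a dim wild-type value and are uncertain. Across the 14 probe sets, which share the arrays and the gene, the levels of the transgenic and wild-type arrays correlated with r = 0.96, and the difference correlated with the wild-type level with r = 0.67.

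The 4 Scn2a probe sets with the highest numbers had the largest differences. Numbers of Scn2a probe sets run on in steps of 2, apart from a step of 6 around the probe sets shared with other genes and a step of 10 between 10472386 and 10472396. The 4 probe sets after that step were at 8.75 to 10.60 in transgenic muscle and 5.84 to 7.72 in wild-type muscle, and differed by 2.88 to 3.50. The 10 before it were at 6.09 to 8.65 in transgenic muscle and 4.30 to 6.41 in wild-type muscle, and differed by 1.57 to 2.57. The groups of differences do not overlap, but this split was chosen after the values were seen. Over all 14, number order correlated with the difference (Spearman's rho 0.59) and about as much with the wild-type level (rho 0.62), so order and brightness cannot be told apart. On chromosome 2 the numbers followed genome position in the RefSeq table, with a Spearman's rho of 0.974 over 744 plus-strand genes. Scn2a lies on the plus strand.

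Few genes have so many probe sets of their own. Of the 78 genes with at least 5 probe sets of their own, Scn2a alone passed 1.5-fold in 1 direction on every probe set. The next highest median was 0.49, over the 13 probe sets of Myo9a, an unconventional myosin. The lowest was -0.38, over the 6 probe sets of Atp5l, a subunit of the mitochondrial ATP synthase. The median of the 78 gene medians was 0.02. The SD over probe sets was also highest for Scn2a, 0.54 against a median of 0.10 over the 78 genes. Since Scn2a was chosen for its difference on these arrays, its place among the 78 genes is a description only.

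**Figure D2:**
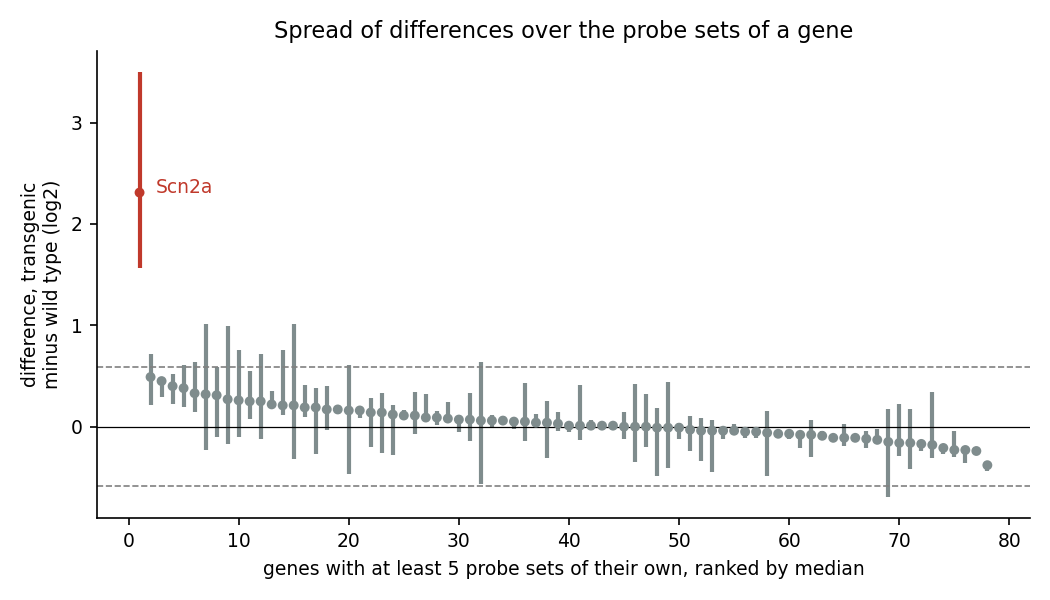
Differences (log2, transgenic minus wild type) over the probe sets of the 78 genes with at least 5 of them, ranked by median, with lines from the lowest to the highest probe set, points at the median and dashed lines at 1.5-fold. The line of Scn2a, which was chosen for its difference, runs from 1.57 to 3.50. It lies wholly above the highest median of the other genes, 0.49 for Myo9a.

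Scn7a was the other member above 1.5-fold. Its 1 probe set was at 9.10 in transgenic muscle and 8.14 in wild-type muscle, a difference of 0.96 or 1.95-fold. Both levels were well above the olfactory receptor percentile. Set beside the 500 genes closest in mean level, with a local spread of 0.22, the size of the difference ranked 9, and Scn7a was number 102 from the top among all genes.

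The other alpha subunit genes of the cluster were dim and did not show the difference of Scn2a. Scn1a, the channel of many inhibitory neurons, was at 4.13 in transgenic muscle and 4.08 in wild-type muscle. Scn3a was at 4.82 in transgenic muscle and 4.78 in wild-type muscle. These differences of 0.05 and 0.04 lay within the local spreads of 0.19 and 0.21. Scn9a, the channel of pain-sensing neurons, was at 4.17 and 4.77 on its 2 probe sets in transgenic muscle, against 3.86 and 4.39 in wild-type muscle. Its differences of 0.31 and 0.38 were both positive and under 1.5-fold. On the brighter probe set the size ranked 26 beside the 500 genes closest in level, and exceeded the local spread of 0.21. All own probe sets of Scn1a, Scn3a and Scn9a were below 5.42 on both arrays, where RMA values carry little information on a gene's level, so small differences in these genes were not detectable here. The 6 Scn2a probe sets that were also below 5.42 in wild-type muscle had differences of 1.57 to 2.35.

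The 3 probe sets that name several sodium channel genes behaved differently from each other. Probe set 10472374, annotated to Scn9a and Scn3a, was at 6.65 in transgenic muscle and 4.60 in wild-type muscle, a difference of 2.05 or 4.14-fold. Its number lies between those of Scn2a probe sets, and its difference lies inside the Scn2a range of 1.57 to 3.50 and far from the 0.04 to 0.38 of the probe sets that name Scn3a or Scn9a alone. Its neighbour 10472372, annotated to Scn2a, Scn9a and Scn3a, was at 3.53 in transgenic muscle and 3.38 in wild-type muscle, a difference of 0.15 at a level among the dimmest of the family. Probe set 10483215, annotated to Scn3a and Scn1a, was at 5.35 in transgenic muscle and 5.10 in wild-type muscle, a difference of 0.25. These alpha subunit genes are similar in sequence, so the share of each gene in such a probe set is unknown, and none of the 3 was counted for a gene.

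Scn4b, the beta subunit gene on chromosome 9, was bright and nearly equal. It was at 11.24 in transgenic muscle and 11.30 in wild-type muscle, a difference of -0.06 within the local spread of 0.21. Of the 3 members at or above the level filter of 6.79 (the median over all genes of the higher of both values), Scn2a and Scn7a were therefore higher by 1.5-fold and none was lower. Over the 9974 genes at or above that level, 2.66% were higher and 1.71% lower by 1.5-fold, with a median difference of 0.03. Over the 6 member genes at any level the median difference was 0.21, with 5 above 0 and 1 below. Over all 19938 genes the median was 0.00, with 9358 above 0 and 9889 below. Since the family was taken up for the difference of Scn2a, nothing is read from the counts and median of its members.

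**Figure D3:**
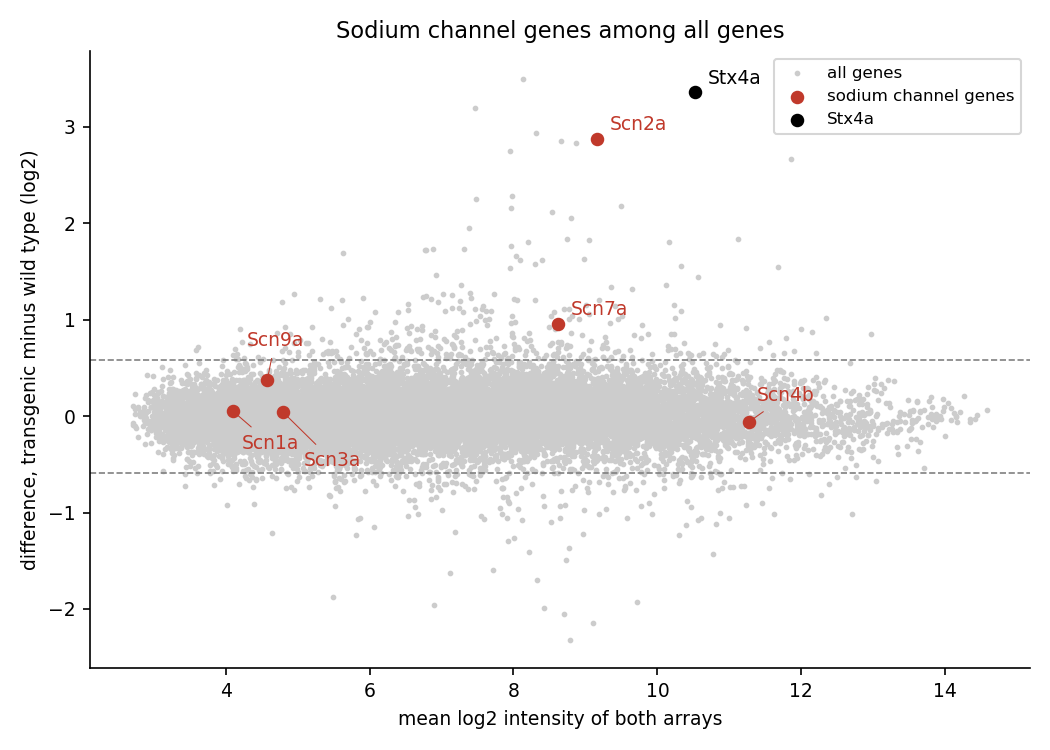
Difference (log2, transgenic minus wild type) against mean log2 intensity for the 19938 genes in grey, the 6 sodium channel genes in red and Stx4a in black, with dashed lines at 1.5-fold. Scn2a (2.88) and Scn7a (0.96) lie above the upper line, and Scn9a, Scn1a, Scn3a and Scn4b lie between the lines.

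No gene that lies beside Scn2a on chromosome 2 had a difference near its size. Between the outermost cluster members lie 4 other measured genes. Csrnp3, which encodes a nuclear protein and follows Scn2a directly among measured genes, was at 4.70 in transgenic muscle and 4.45 in wild-type muscle. Galnt3, which starts mucin-type O-glycosylation, was at 4.95 in transgenic muscle and 5.20 in wild-type muscle. Ttc21b, a gene of transport in cilia, was at 6.51 in transgenic muscle and 6.18 in wild-type muscle, and the non-coding gene model Gm13629 was at 4.17 in transgenic muscle and 4.16 in wild-type muscle. Their differences ran from -0.25 to 0.33, and none of the 4 reached the level filter.

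With the 10 nearest measured genes on each side, the neighbourhood held 24 genes, of which 17 were above 0 and 7 below. The median difference was 0.145 and the range -0.73 to 0.80. At or above the level filter were 10 of the 24, with a median of 0.32, 8 above 0 and 2 below, against a median of 0.03 over all genes at that level. Cers6, a ceramide synthase gene, was the only one of these past 1.5-fold, at 7.10 in transgenic muscle and 6.30 in wild-type muscle (0.80). Kcnh7, a potassium channel gene, was lower by more than 1.5-fold but dim, at 4.80 in transgenic muscle and 5.53 in wild-type muscle (-0.73). Over genes at any level, 1.76% were higher and 1.19% lower by 1.5-fold. B3galt1, a galactosyltransferase gene named after its value was seen, was just short of that size at -0.58. B3galt1 reached the level filter only in wild-type muscle. Cers6 reached it only in transgenic muscle, as did Dpp4 and Fap, named after their values were seen. The measured genes between Scn2a and Scn7a, Scn1a and Scn9a among them, had differences from -0.25 to 0.38.

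**Figure D4:**
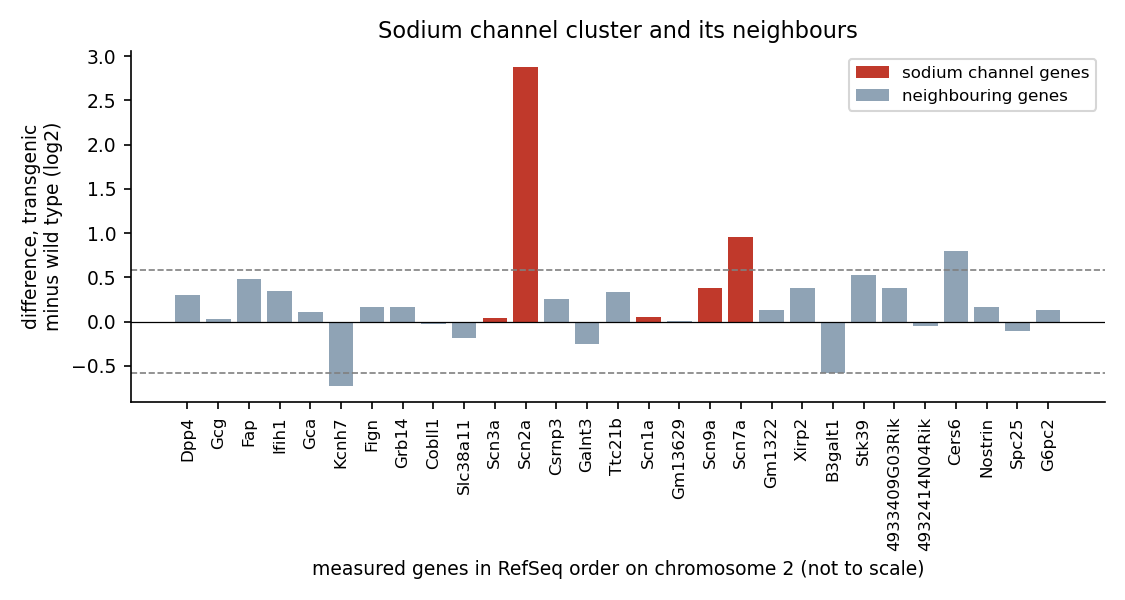
Differences (log2, transgenic minus wild type) of the cluster members in red and of the 24 neighbouring genes in grey-blue, in RefSeq gene order on chromosome 2 and not to scale, with dashed lines at 1.5-fold. Scn2a stands at 2.88 between Scn3a at 0.04 and Csrnp3 at 0.25.

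Sodium channel genes outside the list were dim and differed by less than 1.5-fold. Scn8a, the channel of axon nodes, was at 4.28 in transgenic muscle and 4.33 in wild-type muscle. Scn10a and Scn11a, channels of pain-sensing neurons, were at 4.34 and 4.84 in transgenic muscle, against 4.88 and 4.96 in wild-type muscle. The difference of -0.54 for Scn10a was the largest among them and had a size that ranked 5 beside the 500 genes closest in mean level, although both values lay below the olfactory receptor percentile. Nalcn, a sodium leak channel, was at 5.70 in transgenic muscle and 5.51 in wild-type muscle. The beta subunit genes Scn2b (5.30 in transgenic muscle and 5.70 in wild-type muscle) and Scn3b (6.72 in transgenic muscle and 6.56 in wild-type muscle) differed by -0.40 and 0.16.

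Genes whose products bind, anchor or modify sodium channels had differences on both sides of 0. Of 25 listed partners 23 were measured, with 11 above 0, 10 below and 2 at 0, and the median difference was 0.00. At or above the level filter, 1 of 15 was higher and 2 were lower by 1.5-fold, against 2.66% higher and 1.71% lower over all genes at that level. Camk2d, a calcium-dependent kinase that phosphorylates the cardiac channel, was at 11.13 in transgenic muscle and 10.51 in wild-type muscle (0.62). Sntb1, a syntrophin of the dystrophin complex, was at 7.96 in transgenic muscle and 8.89 in wild-type muscle (-0.93). Rangrf, which aids delivery of the cardiac channel to the membrane, was at 9.91 in transgenic muscle and 10.51 in wild-type muscle (-0.60). The anchor Ank3 (0.13), the channel-binding factor Fgf13 (-0.04) and the ubiquitin ligase genes Nedd4 (0.04) and Nedd4l (-0.30) were under that size. So were Dmd, the gene of dystrophin (0.56), the SUMO ligase gene Pias1 (0.54) and the kinase gene Fyn (0.47). All 7 were picked for mention with their values known.

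Regulators of sodium channel transcripts all differed by less than 1.5-fold. All 14 listed genes were measured, with 8 above 0, 4 below, 2 at 0 and a median difference of 0.07. None reached 1.5-fold, against 1.76% higher and 1.19% lower over all genes at any level. Rest, the repressor of neuronal genes, was at 8.40 in transgenic muscle and 8.28 in wild-type muscle (named after its value was seen). Myod1, the muscle factor that reads E-boxes, had the highest difference of the list (0.30), at 9.32 in transgenic muscle and 9.02 in wild-type muscle. Rbfox1, a splicing factor, had the lowest difference (-0.14), at 11.34 in transgenic muscle and 11.48 in wild-type muscle. Of 19 genes of fibre excitability 17 were measured, with 8 above 0, 9 below and a median of -0.03. All 17 were at or above the level filter, where 2.66% of all genes were higher and 1.71% lower by 1.5-fold. Chrnb1, a subunit of the acetylcholine receptor, was the only one past that size, at 8.88 in transgenic muscle and 8.24 in wild-type muscle (0.64). Atp1b1, a sodium pump subunit, had the lowest difference (-0.32).

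**Figure D5:**
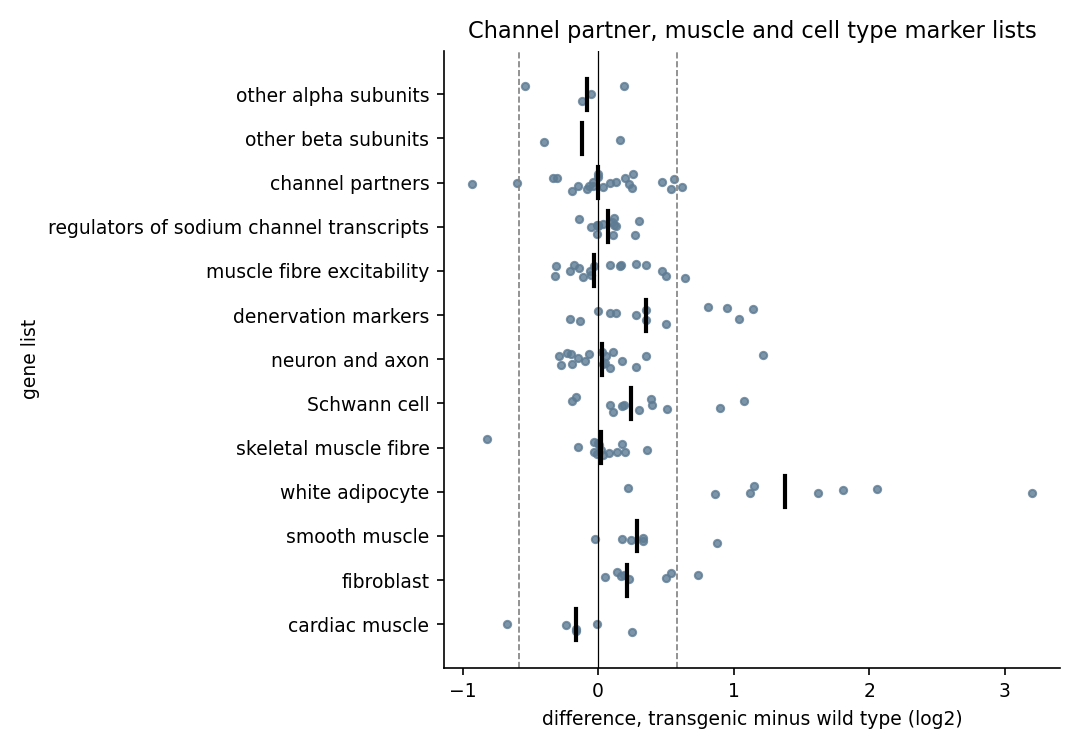
Differences (log2, transgenic minus wild type) of the measured members of the 13 gene lists, with 1 point per gene, black bars at the list medians and dashed lines at 1.5-fold. White adipocyte markers have a median of 1.38 and denervation markers of 0.35, whereas channel partners lie at 0.00 and neuron and axon markers at 0.03.

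Of the 18 markers of neurons and axons, in which Scn2a is best known, all were measured, 10 were above 0 and 8 below, with a median difference of 0.03. Only 2 of the 18 reached the level filter, Stmn2 (-0.19) and Uchl1 (1.22), and their median was 0.51, so the list median rests mostly on dim genes. The mean level of the 18 was 5.70 in transgenic muscle and 5.65 in wild-type muscle, and 10 of 18 lay above the olfactory receptor percentile in each array. Of defining markers named after their values were seen, Snap25 (5.26 in transgenic muscle and 5.08 in wild-type muscle) and Nefl (4.35 in transgenic muscle and 4.64 in wild-type muscle) lay below that percentile on both arrays, and Rbfox3 (5.85 in transgenic muscle and 5.57 in wild-type muscle) lay just above it. Nefl was the lowest of the list by difference (-0.29). Uchl1, a ubiquitin hydrolase of neurons, was the only member past 1.5-fold, at 8.62 in transgenic muscle and 7.40 in wild-type muscle (1.22). Over genes at any level, 1.76% were higher and 1.19% lower by that size. In bulk tissue, more cells of a type and more RNA per cell cannot be told apart.

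Markers of Schwann cells, in which Scn7a is known, differed mostly by less than 1.5-fold. Of 15 listed markers 12 were measured, with 10 above 0, 2 below and a median of 0.24, and their mean level was 7.13 in transgenic muscle and 6.82 in wild-type muscle. Above the olfactory receptor percentile were 10 of 12 in transgenic muscle and 9 of 12 in wild-type muscle. Of the 7 at or above the level filter, 1 passed 1.5-fold, against 2.66% of all genes at that level: Egr2, a myelination factor that is also an immediate early gene, at 6.94 in transgenic muscle and 5.86 in wild-type muscle. Egr2 reached the level filter only in transgenic muscle. Ncmap, a myelin protein gene, was at 6.31 in transgenic muscle and 5.41 in wild-type muscle, under the level filter. Gjb1, a gap junction gene of myelin, had the lowest difference (-0.19), and Sox10, the defining transcription factor of the lineage, named after its value was seen, was at 6.86 in transgenic muscle and 6.77 in wild-type muscle. The part of Schwann cells in the Scn7a difference was not tested.

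White adipocyte markers differed in the same direction as Scn2a and Scn7a. All 8 were above 0 and at or above the level filter, and 7 of them were higher by 1.5-fold, against 2.66% of all genes at that level, with a median of 1.38 and mean levels of 9.11 in transgenic muscle and 7.61 in wild-type muscle. Lep, the hormone leptin, had the highest difference (3.20) and Fabp4, a fatty acid carrier, the lowest (0.22). Adipoq, Cidec, Plin1, Retn, Pck1 and Slc7a10 lay between, from 2.06 to 0.86. Lep, Pck1 and Slc7a10 reached the level filter only in transgenic muscle, since their wild-type levels were 5.86, 6.59 and 6.12. Of 14 denervation markers 13 were measured, with 10 above 0, 2 below, 1 at 0 and a median of 0.35, and their mean level was 8.12 in transgenic muscle and 7.71 in wild-type muscle. Ncam1, a cell adhesion gene (1.14), Runx1, a transcription factor (1.04), and Hdac4, a histone deacetylase (0.81), were 3 of 10 at or above the level filter that passed 1.5-fold, against the same 2.66%. Sln (0.95) was under the level filter, and Chrng, the fetal acetylcholine receptor subunit, had the lowest difference (-0.21). Myog, another marker of denervation, named after its value was seen, was at 6.22 on both arrays. The adipocyte and denervation lists, like all 13 lists, were chosen with earlier results of these data known, so their counts are a description only.

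Of fibroblast and smooth muscle markers, 1 of each list was higher by 1.5-fold, against 2.66% of all genes at or above the level filter. All markers of both lists reached that filter. All 8 fibroblast markers were above 0 (median 0.21, mean level 10.23 in transgenic muscle and 9.91 in wild-type muscle), from Fbln1 at 0.05 to Lum at 0.74, the only one past 1.5-fold. Of 6 smooth muscle markers 5 were above 0 (median 0.29, mean level 9.75 in transgenic muscle and 9.42 in wild-type muscle). The list ran from Smtn at -0.02 to Cnn1 at 0.88, its only gene past 1.5-fold. Cnn1 reached the level filter only in transgenic muscle, since its wild-type level was 6.47. Of 6 cardiac markers 1 was above 0 (median -0.16, mean level 6.64 in transgenic muscle and 6.81 in wild-type muscle), from Myh6 at -0.67 to Nppa at 0.25, and the median of the 2 at or above the level filter was -0.42. In the fibre list the slow myosin gene Myh7 had the lowest difference (-0.82) and Myh1 the highest (0.36). Myh6 and Myh7 were each the only gene of their list past 1.5-fold. Both were lower and at or above the level filter, where 1.71% of all genes were lower by that size. The part of any of these cells or states in the differences of Scn2a and Scn7a was not tested.

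Over the 2 arrays, the 5 genes at or above the level filter with a difference nearest to that of Scn2a were Vaultrc5 (2.85), Fam171b (2.83), Fsd1l (2.94), Nnat (2.75) and Gstm5 (2.67). The measure of likeness is the gap in log2 difference, which was 0.03 to 0.21. With 1 array per genotype it says only that these values lie close together.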

How the data were processed

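Muscle RNA of Syn4 transgenic and wild-type mice was measured on 1 array each. The deposited values are log2 intensities, to 2 decimals, of 35556 probe sets; the authors used RMA in Partek, per the submitters' processing notes, without stated versions or settings. Both arrays had a median of 6.06, and RMA compresses large ratios. Scanner intensities were not used here. With 1 array per genotype, precision is limited by the number of arrays.

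Gene names were those of the platform annotation, some of them old (1 symbol for 21789 probe sets, several for 1621, none for 12146). RefSeq (GRCm38.p6) held 21698 of the 21789 by Entrez identifier and changed 0 symbols. A gene with several probe sets was represented by that of the highest mean. Genes were counted at 1.5-fold (0.58 on the log2 scale) when the higher value reached 6.79. The local spread is the median absolute deviation, times 1.4826, over the 500 genes nearest in mean level. Named were all members, genes between members, neighbours and list members past 1.5-fold, the highest and lowest of each list, the 5 genes most like Scn2a, and genes said to be chosen later. Members and the 13 lists were chosen with earlier results of these data known. Alternatives were other probe set rules, filters, folds, list means, and scaling by median centring, loess (span 0.3, 3 iterations, statsmodels 0.14.6) or quantiles. The planned protein comparison was not run, since no protein sequences were used here. Counting was tested on simulated data with known shifts, in which all other differences were held under 1.5-fold. That test says nothing about false counts. Python 3.11.15 and pandas 2.3.3 were used.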

Additional observations from a re-analysis of the deposited data

How the results depend on the processing

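Of 110 alternative values, 104 moved by less than the local spread of genes of like level (for counts, by no more than 1.5 times), 6 moved by more, and none past 1.5-fold changed sign. The Scn2a difference of 2.88 was 2.40 as the mean of its probe sets, 2.31 as the median of their differences and 1.57 on the dimmest probe set, and 2.84 to 2.88 under the other scalings. At 2-fold, 1 member gene (Scn2a) was counted as higher in place of 2. With members at or above the level filter only, the median was 0.51 for neuron and axon markers, of which 2 remained, and -0.42 for cardiac markers, of which 2 remained. The mean of the fibre excitability list (0.07) had the opposite sign to its median (-0.03). Scn7a ran from 0.92 to 0.96 over the scalings. Scaling of the lists and of the neighbours, and the level filter on Scn2a probe sets (10 of 14 left, all higher by 1.5-fold), were chosen after seeing the data. All 14 passed 1.5-fold without that filter, so its outcome was fixed and nothing is read from it. In wild-type muscle 2 of the 14 probe sets reached the filter level. Repeated quantile normalization lowered the median difference of all genes by 0.03. No paired analysis was possible because each genotype has 1 array and no labels pair them. Dim signal limits Scn1a, Scn3a and Scn9a, and 1 array per genotype limits every value.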
